A study of Canis lupus familiaris with 4 samples.

Results

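The translation initiation and elongation factors were followed in MDCKII cells, a line of polarized epithelial cells from canine kidney, on Affymetrix canine arrays. The group was defined by gene symbol: every probe set that carried exactly 1 symbol starting with EIF1 to EIF6, EEF1 or EEF2 was taken, the EIF2AK kinases were left out, and the probe set with the highest mean intensity stood for its gene. This gave 54 genes with 119 probe sets, of 15115 genes with 29254 single-symbol probe sets. The rule uses symbols only, and the group was proposed with earlier results of these data known. Of the 54 genes, 50 passed the filter on low intensity (the highest of the 4 values at least 28.75, the median of all values), as did 9749 genes in all. *EIF4A1*, *EIF4G1*, *EIF3C* and *EIF4EBP3* carried no single-symbol probe set and were not analysed here.

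The study set WT cells beside cells with knockdown of HIF2A (HIF2α-KD), each at both oxygen levels, and hybridised 1 array for each of the 4 conditions. All cells were kept for 24 h in normoxia and then for a further 24 h in normoxia or in hypoxia. Per the study's methods, the knockdown used a retroviral shRNA with puromycin selection and the control cells carried an empty shRNA cassette. The line named in the study's text for the normoxic array comparison is HIF2α-KD#1, while the labels of the arrays name no line. No condition was replicated, so a difference between 2 arrays has no replicate error and is given without a test.

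Translation of an mRNA begins when eIF2 brings the initiator tRNA to the small ribosomal subunit, eIF4E binds the cap, and the scaffold eIF4G and the helicase eIF4A join it in the complex eIF4F. eIF3 holds the small subunit to this complex, and eIF5B joins the large subunit once the start codon is found. The elongation factors eEF1A and eEF2 then deliver aminoacyl-tRNAs and move the ribosome, and cells short of oxygen are known to restrain the pathway through phosphorylation of eIF2α and eEF2 and through the 4E-BP proteins, which sequester eIF4E. These controls act largely on proteins, whereas the arrays measured mRNA only.

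*EPAS1*, which encodes HIF2α, had intensities in normoxia of 44.6 in WT and 47.9 on the array with the HIF2α-KD label, and in hypoxia of 116 in WT and 32.6 in HIF2α-KD. The target was therefore lower in HIF2α-KD in hypoxia only, and every difference that uses the normoxic HIF2α-KD array rests on its label. The 63 dim reporter probe sets, which served as background, had 95th percentiles of 20.6 to 27.2 on the 4 arrays. Of 11 hypoxia reporter genes measured, 9 passed the filter, and all 9 were higher in hypoxia in both lines. *NDRG1* (14.4 in WT and 18.4 in HIF2α-KD in normoxia) and *EGLN3* (25.5 and 19.1) passed only through their hypoxic values. For these genes the filter itself favours that direction. *CA9* (26.3 and 28.4 in normoxia, 20.1 and 20.1 in hypoxia) and *BNIP3* (15.3 and 26.7, then 26.1 and 21.0) did not pass. Of 11 epithelial and kidney markers measured, 8 were above the reporters' 95th percentile on all 4 arrays; *PAX8* and *PAX2* were below it on all 4, and *CDH1* was below it on both normoxic arrays. Among markers of other cells, 4 of 5 endothelial and 5 of 6 fibroblast genes lay below that level on every array, *PECAM1* and *COL1A1* among them. Of the 5 leukocyte genes, 4 lay above it on all 4 arrays. The summed intensity of each list was 118 to 145, 78.2 to 200 and 147 to 183 over the arrays. *PDGFRA* was the fibroblast gene above it, with 31.5 and 33.8 in normoxia and 145 and 75.7 in hypoxia for WT and HIF2α-KD. The part of other cells in the results was not tested.

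Most of the translation factors were plainly detected. Of the 50 genes that passed the filter, 49 lay above the reporters' 95th percentile on all 4 arrays and 35 had an intensity over 1000 on all 4. The 4 genes that did not pass were *EEF1A2*, the eEF1A isoform of muscle and neurons, *EEF2K*, the kinase that inactivates eEF2, and the cap-binding relatives *EIF4E1B* and *EIF4E2*. *EEF2K* had intensities of 20.1 and 10.5 in normoxia and 18.0 and 9.97 in hypoxia for WT and HIF2α-KD, and *EEF1A2* stayed between 1.03 and 8.78. These values lie within the reporters' range, so no order was read from them. As whole cultures were measured, fewer expressing cells and less RNA per cell cannot be told apart in any value here.

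**Figure D1:**
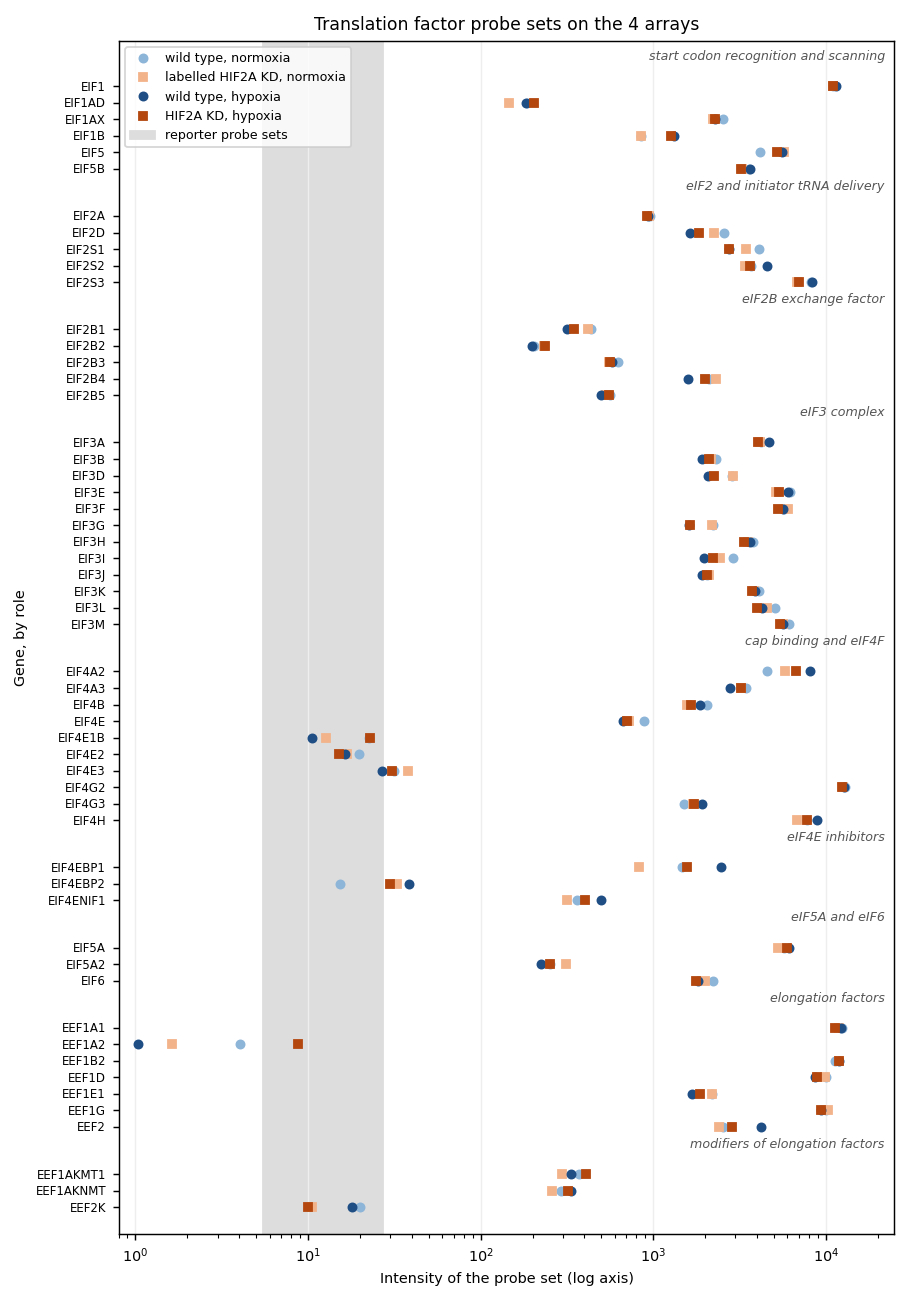
Intensity (log axis, arbitrary units as deposited) of the 54 translation factors on the 4 arrays, 1 point per gene and array, arranged by role; the grey band spans the reporter probe sets from their lowest median (5.48) to their highest 95th percentile (27.2). The 4 points of most genes lie close together far above the band, and 4 genes lie within or below it on all arrays.

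No translation factor differed by 2-fold or more in any of the 4 comparisons, on the scale of log2(intensity + 16) used for all differences below. In WT, hypoxia gave 0 of 50 factors at least 2-fold higher, where 3.05% of all 9749 genes were, and 0 at least 2-fold lower, where 0.544% were. In HIF2α-KD the corresponding shares of all genes were 1.38% and 0.421%. For HIF2α-KD against WT they were 0.615% and 0.544% in normoxia and 0.103% and 0.882% in hypoxia. With shares this small, a count of 0 among 50 genes is near the background.

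At 1.5-fold, 5 of 50 factors (10%) were higher in hypoxia in WT, against 10.2% of all genes. They were *EIF4A2*, *EIF4EBP2*, *EIF4EBP1*, *EEF2* and *EIF1B*. *EIF2D* and *EIF2S1* were lower (2 of 50, 4%, against 4.32%). In HIF2α-KD only *EIF4EBP1* was 1.5-fold higher in hypoxia (2%, against 5.47%) and none was lower (against 2.69%). For HIF2α-KD against WT, *EIF4EBP2* was higher in normoxia (2%, against 2.45%), *EIF4EBP1* was lower in normoxia (2%, against 3.55%) and in hypoxia (2%, against 4.93%), and none was higher in hypoxia (against 1.62%). None of these shares lies far above that of all genes. Averaged over all probe sets of each gene, 8 of 50 were higher in hypoxia in WT, against 9.79% of all genes, with *EIF4G3*, *EIF5* and *EIF5A* added, and *EIF2D* was no longer 1.5-fold lower while *EIF2B4* was. *EIF1B* fell short of 1.5-fold under quantile normalization and median centring, and *EIF4EBP1* fell short of it for the knockdown in hypoxia under median centring. The calls of *EIF4EBP2* rest on a normoxic WT value that was not above the reporters.

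The spread of the factors was narrower than that of all genes. The SD of the log2 difference over genes was 0.35 for the factors and 0.45 for all genes for hypoxia in WT, 0.24 and 0.37 for hypoxia in HIF2α-KD, 0.22 and 0.32 for the knockdown in normoxia, and 0.19 and 0.31 for the knockdown in hypoxia. Among the 5360 genes that reached the 75th percentile of intensity, 48 factors among them, the SDs for hypoxia in WT were 0.34 and 0.48. The medians of the factors were -0.06, -0.03, -0.08 and -0.04 in that order, beside 0.03, 0.02, -0.04 and -0.04 for all genes. The cut at the 75th percentile does not match the genes on intensity, and 35 of 50 factors were over 1000 on all 4 arrays. The part of intensity in the narrower spread was not tested.

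More factors lay below 0 than above it in hypoxia: 33 of 50 in WT and 30 of 50 in HIF2α-KD, whereas 53.2% of all genes lay above 0 in each line. With the arrays quantile normalized or centred on their medians, which also moves the median of all genes, 36 and 38 factors lay below 0 in WT. In HIF2α-KD 29 and 39 did. The shares of all genes above 0 were then 44.8% and 42.5% in WT and 48.7% and 40.7% in HIF2α-KD. For the knockdown in hypoxia, 20 of 50 factors lay above 0 as deposited and 32 of 50 under either scaling, where 44.3%, 54.5% and 55.5% of all genes did, so the sign of small differences there follows the scaling. Over the 50 factors, the hypoxia differences of the 2 lines, which share no array, had Pearson's r of 0.66 and Spearman's rho of 0.68, against 0.53 and 0.46 over all 9749 genes. These are correlations across genes, which are not independent replicates. Between the knockdown differences at the 2 oxygen levels, r was 0.20 over the 50 factors and -0.02 without *EIF4EBP1*, against 0.17 over all genes.

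**Figure D2:**
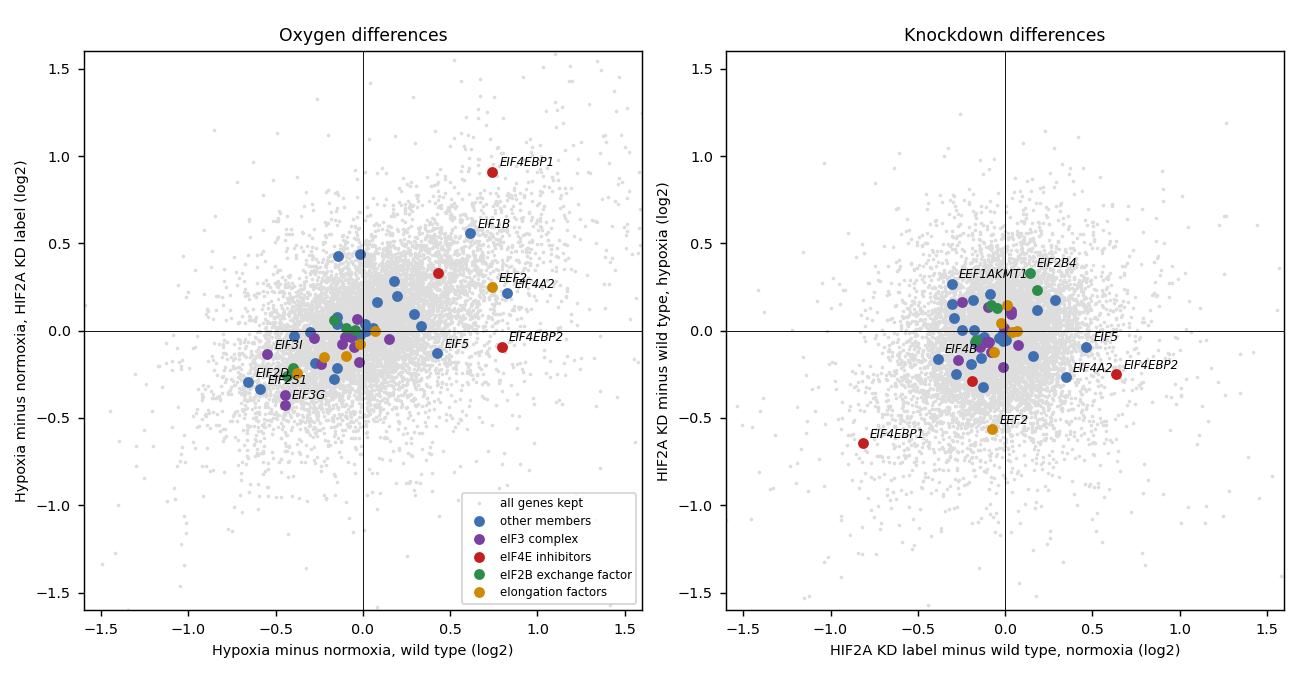
Log2 differences of all kept genes (grey, some outside the axes) and of the 50 translation factors (coloured): hypoxia against normoxia in WT (horizontal) and in HIF2α-KD (vertical) in the left panel, and HIF2α-KD against WT in normoxia (horizontal) and in hypoxia (vertical) in the right panel. The factors stay within 1 log2 unit of 0 on every axis, and *EIF4EBP1* stands at the edge of them in both panels.

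A single model over the 4 arrays, with oxygen and knockdown as additive terms and 1 residual degree of freedom, was fitted with limma over all 9749 genes. The residual holds both noise and any interaction of the terms. For oxygen, 1 factor passed a Benjamini-Hochberg adjusted p of 0.05, *EIF4EBP1*, which was higher, while 2.4% of all genes passed as higher and 0.421% as lower. At an unadjusted p of 0.05, 6 factors (12%) were higher and 9 (18%) lower, where 13.1% and 7.43% of all genes were. For knockdown no gene passed after adjustment, with a smallest limma adjusted p of 0.0594 over all genes and 0.172 over the factors. At an unadjusted p of 0.05, 0 factors were higher and 4 (8%) lower for knockdown, *EIF4EBP1*, *EIF2S3*, *EIF4H* and *EIF3E*, beside 2.11% and 7.52% of all genes.

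*EIF4EBP1* was the factor that passed the test for oxygen. It encodes 4E-BP1, which binds eIF4E and blocks assembly of eIF4F until mTORC1 phosphorylates it. Its intensity was 1476 in WT and 832 in HIF2α-KD in normoxia, and 2477 in WT and 1578 in HIF2α-KD in hypoxia. Each line was thus higher in hypoxia, and at each oxygen level the HIF2α-KD array was lower, so that HIF2α-KD in hypoxia lay near WT in normoxia. The hypoxia differences were 0.74 in WT and 0.91 in HIF2α-KD, and the knockdown differences were -0.82 in normoxia and -0.64 in hypoxia. *EIF4EBP1* rose with hypoxia by 0.83 on the log2 scale (SE 0.13, limma adjusted p = 0.0293). The adjusted p lay between 0.0109 and 0.0713 over the alternative settings, and was above 0.05 with median centring, with no filter and with no trend in the prior variance. For HIF2α-KD against WT the limma estimate for *EIF4EBP1* was -0.73 (SE 0.13), with an unadjusted p of 0.000922 and an adjusted p of 0.172 (0.0844 to 0.399 over the settings). Its other probe set gave 1008, 618, 1601 and 1012 in the same order of arrays, with hypoxia differences of 0.66 and 0.70 and knockdown differences of -0.69 and -0.65. Both probe sets therefore put the 4 arrays in the same order. Of all genes, 1.13% lay below *EIF4EBP1* for the knockdown in normoxia and 3.80% in hypoxia.

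The other inhibitors of eIF4E were less even. *EIF4ENIF1* encodes 4E-T, which carries eIF4E to the nucleus and to processing bodies, and its intensities in WT and HIF2α-KD were 365 and 318 in normoxia and 497 and 404 in hypoxia. The arrays stood in the same order as for *EIF4EBP1*, with hypoxia differences of 0.43 and 0.33 and knockdown differences of -0.19 and -0.29. Its 2 dimmer probe sets gave -0.07 and 0.24 for hypoxia in WT and -0.04 and -0.09 in HIF2α-KD. Their knockdown differences were 0.13 and 0.21 in normoxia and 0.15 and -0.12 in hypoxia, so they did not share this order. *EIF4EBP2*, a paralogue of *EIF4EBP1*, was dim, with 15.3 in WT and 32.8 in HIF2α-KD in normoxia and 38.4 and 29.8 in hypoxia. The normoxic WT value of *EIF4EBP2* was below the reporters' 95th percentile, and the other 3 values lay close together. Its nominal differences of 0.80 for hypoxia in WT and 0.64 for the knockdown in normoxia rest on that value and are not measured sizes. With the probe sets that stand for the genes, all 3 inhibitors lay above 0 for hypoxia in WT, under each of the 3 scalings. All 3 lay below 0 for the knockdown in hypoxia, again under each scaling. As deposited, 53.2% and 44.3% of all genes lay above 0 in these comparisons. For *EIF4EBP2* the sign for hypoxia in WT rests on the value below the reporters' 95th percentile.

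**Figure D3:**
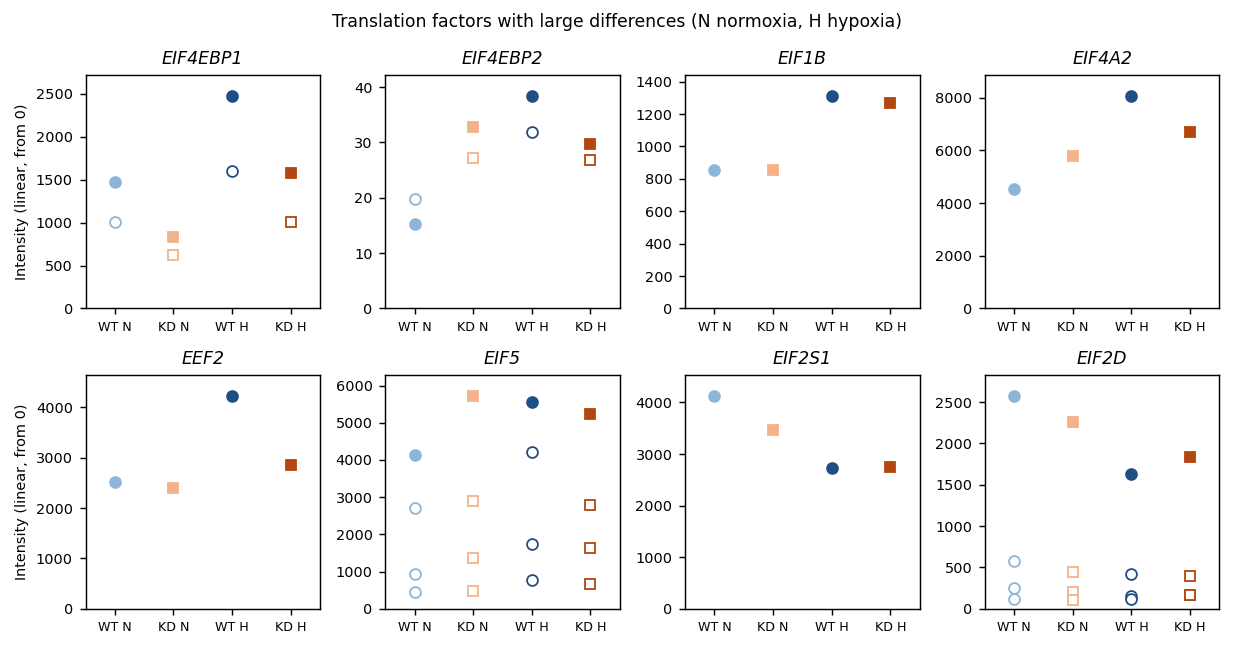
Intensity (linear axis from 0, arbitrary units) of 8 translation factors on the 4 arrays, normoxia (N) and hypoxia (H) for WT and HIF2α-KD (KD); filled points are the probe set that stands for the gene and open points its other kept probe sets. *EIF4EBP1* is higher in hypoxia and lower on the HIF2α-KD arrays with both probe sets, whereas *EIF4A2* and *EEF2* are highest in WT in hypoxia.

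The cap-binding and eIF4F group held the factor with the highest difference for hypoxia in WT. *EIF4A2*, a helicase of eIF4F that unwinds the leader of the mRNA, had intensities of 4545 in WT and 5783 in HIF2α-KD in normoxia and of 8077 and 6707 in hypoxia. The difference with hypoxia was 0.83 in WT and 0.21 in HIF2α-KD. The knockdown difference of *EIF4A2* was 0.35 in normoxia and -0.27 in hypoxia, so the 2 lines stood in opposite order at the 2 oxygen levels, and with 1 array per condition this could not be tested. *EIF4E*, the cap-binding protein itself, had 890 in WT and 724 in HIF2α-KD in normoxia and 673 and 709 in hypoxia. WT in normoxia was its highest array, with a hypoxia difference of -0.39 in WT and -0.03 in HIF2α-KD, and its second probe set gave -0.39 and -0.04. *EIF4B*, which stimulates the helicase, had 2065 and 1576 in normoxia and 1863 and 1665 in hypoxia, and was lower on both HIF2α-KD arrays (-0.39 and -0.16). *EIF4G2*, an eIF4G relative that does not bind eIF4E, ranged from 12457 to 12950 and differed by at most 0.04 in size in any comparison. The 8 kept genes of the group had medians of -0.08 and 0.01 for hypoxia in WT and in HIF2α-KD.

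*EIF4G3*, which encodes a scaffold of eIF4F, depended on the probe set. The probe set that stands for the gene had 1515, 1695, 1913 and 1728 for WT and HIF2α-KD in normoxia and then in hypoxia, a hypoxia difference of 0.33 in WT. Its other 3 kept probe sets gave 0.67, 1.14 and a nominal 1.12, the last with a normoxic WT intensity of 26.4, below the reporters' 95th percentile. All 4 were higher in hypoxia in WT, but they disagreed on the size.

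Of the factors that deliver the initiator tRNA, *EIF2S1* and *EIF2D* were lower in hypoxia and *EIF2S2* was not. *EIF2S1* encodes eIF2α, the subunit whose phosphorylation halts initiation under stress, and had 4123 in WT and 3468 in HIF2α-KD in normoxia and 2736 and 2746 in hypoxia. Both hypoxic arrays lay below both normoxic ones, with differences of -0.59 in WT and -0.33 in HIF2α-KD, and the oxygen estimate of -0.46 (SE 0.11) had a limma adjusted p of 0.0888. *EIF2D*, which can deliver tRNA without eIF2, had 2573 and 2262 in normoxia and 1626 and 1840 in hypoxia, again with the arrays of the 2 oxygen levels apart (-0.66 and -0.30). Of its 3 other probe sets, 2 gave -0.44 and -0.62 in WT and the dimmest 0.01. *EIF2S2*, the β subunit, had 3710 and 3395 in normoxia and 4554 and 3634 in hypoxia, with its highest value in hypoxic WT. *EIF2S3*, the γ subunit that binds GTP and the tRNA, had 8243 and 6787 in normoxia and 8299 and 6974 in hypoxia. With this probe set *EIF2S3* was flat with oxygen (0.01 and 0.04) and lower on both HIF2α-KD arrays (-0.28 and -0.25). For knockdown it had an unadjusted limma p of 0.0133 and an adjusted p of 0.34. Its second probe set had 5429 and 4397 in normoxia and 4893 and 4205 in hypoxia. That one gave -0.15 and -0.06 for hypoxia and -0.30 and -0.22 for the knockdown. The subunits of eIF2 thus did not move as a block.

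eIF2B recharges eIF2 with GTP and is the target of the integrated stress response. All 5 of its subunits lay below 0 for hypoxia in WT, where 53.2% of all genes lay above 0. They ranged from -0.05 (*EIF2B2*) to -0.44 (*EIF2B1*), with a median of -0.17. The signs held under each scaling, but rescaling shifts the median of all genes down here (-0.07 or -0.09), so this adds little. The differences of *EIF2B2* and *EIF2B3* (-0.10) were smaller in size than the median residual SD of the limma fit (0.11). In HIF2α-KD 3 of 5 lay within 0.07 above 0. Quantile normalization left 1 of 5 above 0 and median centring 0 of 5, so no side can be given for them. *EIF2B1*, the α subunit, had 435 in WT and 421 in HIF2α-KD in normoxia and 317 and 350 in hypoxia, lower in hypoxia in both lines. *EIF2B4*, the δ subunit, had 2102 and 2320 in normoxia and 1587 and 2002 in hypoxia, and its knockdown difference of 0.33 in hypoxia was the highest among the 50 factors. A dim probe set of *EIF2B4*, at 63.6 and 89.1 in normoxia and 11.8 and 23.8 in hypoxia, was below the reporters' 95th percentile on both hypoxic arrays, so its nominal differences of -1.52 and -1.40 are not measured sizes. The other 3 probe sets lay between -0.40 and -0.09. *EIF2B5*, the catalytic ε subunit, had 565 and 533 in normoxia and 501 and 558 in hypoxia. *EIF2B2*, the β subunit, had 205 and 235 in normoxia and 198 and 235 in hypoxia, with HIF2α-KD above WT at both oxygen levels.

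eIF3 was the largest group, with 12 subunits kept. With hypoxia, 11 of 12 lay below 0 in each line, where 53.2% of all genes lay above 0. After quantile normalization the counts were again 11 and 11, where 44.8% and 48.7% of all genes lay above 0. After median centring they were 11 and 12, where 42.5% and 40.7% of all genes lay above 0. The differences were small, with medians of -0.11 in WT and -0.08 in HIF2α-KD. As deposited, no subunit reached 1.5-fold in either line with the probe set that stands for it. Under median centring *EIF3I* was at least 1.5-fold lower in hypoxia in WT. *EIF3G*, a subunit with an RNA recognition motif, had 2211 and 2201 in normoxia and 1615 and 1636 in hypoxia for WT and HIF2α-KD, so the 2 lines nearly coincided at each oxygen level (-0.45 and -0.42). *EIF3D*, a subunit that can itself contact the cap, had 2848 and 2911 in normoxia and 2085 and 2255 in hypoxia, the same pattern (-0.45 and -0.37). The limma adjusted p for oxygen was 0.111 for *EIF3G* and 0.114 for *EIF3D*. *EIF3I*, a WD40-repeat subunit, had 2905 and 2441 in normoxia and 1982 and 2222 in hypoxia, with a hypoxia difference of -0.55 in WT and -0.13 in HIF2α-KD. Its second probe set gave -0.54 and -0.25.

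Among the remaining eIF3 subunits, *EIF3L* had hypoxia differences of -0.24 and -0.19. Its second probe set, at 4103 and 3488 in normoxia and 2535 and 2764 in hypoxia, gave -0.69 and -0.33, beyond 1.5-fold in WT. *EIF3A*, the large scaffold subunit, had 4219 and 4183 in normoxia and 4677 and 4049 in hypoxia and was the subunit above 0 in WT (0.15), while its second probe set gave -0.18. *EIF3M* had 6138 and 5686 in normoxia and 5645 and 5399 in hypoxia, within 0.12 in size of 0 in every comparison. *EIF3E*, the subunit above 0 in HIF2α-KD (0.07), was lower on both HIF2α-KD arrays (-0.27 and -0.17). *EIF3B* showed how far a gene could depend on its probe set. The bright one, at 1911 to 2327, gave -0.28 for hypoxia in WT, a second at 216 to 356 gave 0.63, and the dimmest, at 31.5 and 43.0 in normoxia and 105 and 72.4 in hypoxia, gave 1.35.

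Among the factors of scanning and start codon choice, *EIF1B* stood apart with hypoxia. It is a close paralogue of *EIF1*, which guards start codon fidelity. *EIF1B* had 852 in WT and 856 in HIF2α-KD in normoxia and 1312 and 1267 in hypoxia. The 2 lines coincided at each oxygen level and both were higher in hypoxia, by 0.61 and 0.56. The oxygen estimate was 0.59 (SE 0.13) with a limma adjusted p of 0.0734. Under robust moderation the limma adjusted p was 0.0411, and under all other alternative settings it lay between 0.0619 and 0.132. *EIF1* itself stayed between 10965 and 11546 with the probe set that stands for it, but its other 4 gave 0.12 to 0.35 for hypoxia in WT and -0.48 to -0.09 for the knockdown in hypoxia. *EIF5*, the GTPase-activating protein for eIF2, had 4137 and 5718 in normoxia and 5564 and 5224 in hypoxia. With this probe set WT in normoxia was the lowest array and the other 3 lay close together. Its knockdown difference was 0.47 in normoxia and -0.09 in hypoxia. The other probe sets of *EIF5* gave 0.63, 0.88 and 0.76 for hypoxia in WT, above the 0.43 of the bright one, and ranged from -0.05 to 0.49 in HIF2α-KD. Their knockdown differences were 0.10, 0.52 and 0.05 in normoxia and -0.59, -0.09 and -0.21 in hypoxia. In the first of them hypoxic WT stood apart, with 2704 and 2895 in normoxia and 4206 and 2792 in hypoxia. The pattern of *EIF5* thus depended on the probe set. *EIF1AD*, which carries an eIF1A-like domain, had 185 and 147 in normoxia and 183 and 205 in hypoxia, lowest on the normoxic HIF2α-KD array. Its second probe set, at 128 and 141 in normoxia and 167 and 159 in hypoxia, was lowest in normoxic WT and gave 0.35 for hypoxia in WT, where the first gave -0.02.

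eIF5A helps the ribosome through difficult peptide bonds, and eIF6 keeps the large ribosomal subunit from joining too early. *EIF5A* had 5769 and 5315 in normoxia and 6109 and 5959 in hypoxia, hypoxia differences of 0.08 and 0.16. Its other 2 probe sets, at 208 to 595, gave 0.81 and 1.00 in WT and 0.84 and 0.96 in HIF2α-KD, so all 3 were higher in hypoxia but by unequal amounts. *EIF5A2*, its paralogue, had 252 and 311 in normoxia and 223 and 254 in hypoxia, with HIF2α-KD above WT at both oxygen levels (0.29 and 0.17). A dimmer probe set of *EIF5A2* gave 1.02 for the knockdown in normoxia, 1 of the 105 kept probe sets (0.952%, against 0.564% of all) in that comparison. *EIF6* had 2209 and 2006 in normoxia and 1825 and 1766 in hypoxia, lower in hypoxia in both lines (-0.27 and -0.18).

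**Figure D4:**
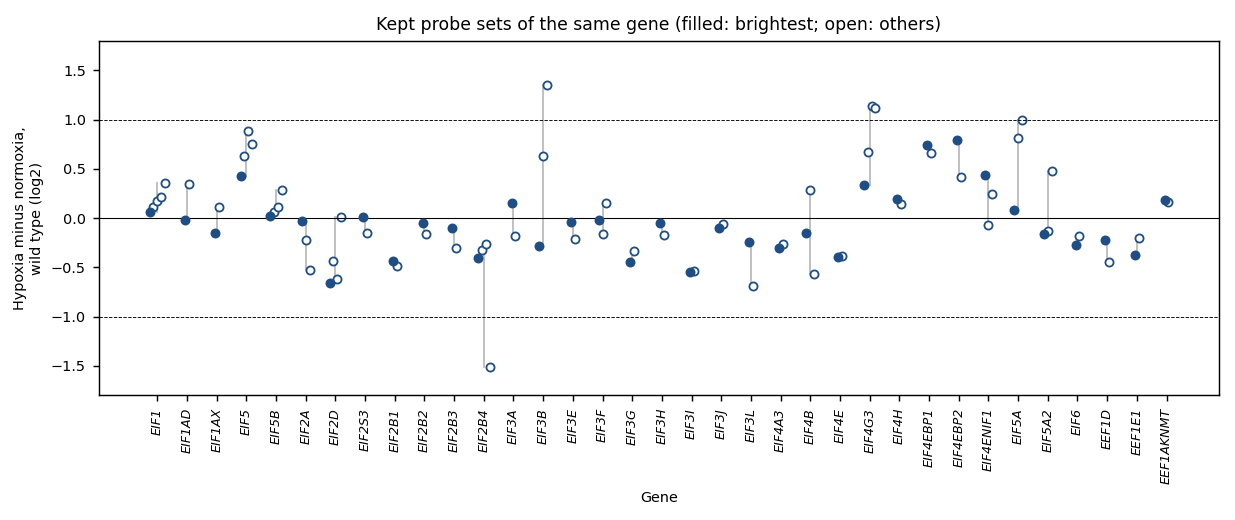
Log2 difference for hypoxia against normoxia in WT for each kept probe set of the 35 translation factors that have several, with the probe set that stands for the gene filled and the others open. In 25 of 35 genes all probe sets have 1 sign, and *EIF3B*, *EIF2B4*, *EIF4G3* and *EIF5A* have probe sets far from the one that stands for the gene.

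Across the 35 factors with several kept probe sets, the probe sets of a gene had a median SD of 0.15 for hypoxia in WT, 0.10 for hypoxia in HIF2α-KD, 0.12 for the knockdown in normoxia and 0.08 for the knockdown in hypoxia. All had the same sign in 25, 22, 21 and 26 of the 35 genes. The median size of the factors' differences was 0.17, 0.13, 0.14 and 0.13 in the same order. Of the 105 kept probe sets, 3 (2.86%) were at least 2-fold higher in hypoxia in WT, of *EIF3B* and *EIF4G3*, against 3.61% of all 17194 kept probe sets, a share near the background. The probe set of *EIF2B4* was 1 of 105 (0.952%) at 2-fold lower in each line, against 0.611% in WT and 0.506% in HIF2α-KD, with hypoxic values not above the reporters.

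Of the elongation factors, *EEF2* differed most. It encodes the translocase that moves the ribosome by 1 codon. *EEF2* had 2524 in WT and 2399 in HIF2α-KD in normoxia and 4224 and 2853 in hypoxia. Hypoxic WT stood above the other 3 arrays, with a hypoxia difference of 0.74 in WT and 0.25 in HIF2α-KD and a knockdown difference of -0.07 in normoxia and -0.56 in hypoxia. *EEF2* has 1 probe set here, as do *EIF4A2*, *EIF1B* and *EIF2S1*, so no second one bears on these values. *EEF1A1*, the carrier of aminoacyl-tRNA, had 12417 and 11885 in normoxia and 12265 and 11292 in hypoxia. *EEF1B2* and *EEF1G*, subunits of the exchange factor that recharges eEF1A, differed by at most 0.15 in size in any comparison. *EEF1D*, another subunit of it, was lower in hypoxia in both lines (-0.22 and -0.15), and its second probe set gave -0.45 and -0.28. *EEF1E1*, a part of the aminoacyl-tRNA synthetase complex, was lower in hypoxia in both lines (-0.38 and -0.24). *EEF1AKMT1*, a methyltransferase of eEF1A, had 372 and 298 in normoxia and 335 and 407 in hypoxia, so that HIF2α-KD was below WT in normoxia (-0.31) and above it in hypoxia (0.27).

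The highest of the 4 arrays was WT in normoxia for 22 of 50 factors and WT in hypoxia for 16, against 26.0% and 35.1% of all genes. HIF2α-KD was the highest for 9 factors in normoxia and 3 in hypoxia, against 21.2% and 17.7%. The lowest array was WT in hypoxia for 17, HIF2α-KD in normoxia for 15, HIF2α-KD in hypoxia for 12 and WT in normoxia for 6, against 26.1%, 30.7%, 20.1% and 23.1% of all genes.

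Other genes of the pathway were taken as a list of 48, of which 43 passed the filter. It holds the eIF2α kinases and phosphatase subunits, mTOR components and stress genes, and also poly(A)- and cap-binding proteins with their partners, release, recycling and ribosome rescue factors, helicases and the enzymes that modify eIF5A. For hypoxia in WT, 4 of 43 were at least 2-fold higher and none lower, where 3.05% and 0.544% of all genes were. They were *DDIT3*, a stress transcription factor, *PPP1R15A*, whose product GADD34 dephosphorylates eIF2α, *DDIT4*, whose product REDD1 restrains mTORC1, and *EIF2AK3*, the eIF2α kinase PERK. *PPP1R15A* had intensities of 922 in WT and 460 in HIF2α-KD in normoxia and 2432 and 621 in hypoxia, and *DDIT3* had 184 and 131, then 580 and 185. Hypoxic WT was far above the other arrays for both genes, with hypoxia differences of 1.38 and 1.57 in WT and 0.42 and 0.45 in HIF2α-KD. In hypoxia these were the 2 genes of the list at least 2-fold lower in HIF2α-KD than in WT, by -1.94 and -1.57. *EIF2AK3* had 175 and 174 in normoxia and 380 and 263 in hypoxia, differences of 1.05 and 0.55.

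*DDIT4* had 167 in WT and 79.7 in HIF2α-KD in normoxia and 403 and 242 in hypoxia, and was the gene of the list at least 2-fold higher with hypoxia in HIF2α-KD (1.43). Its arrays stood in the same order as those of *EIF4EBP1*, with hypoxia above normoxia in both lines and HIF2α-KD below WT at both oxygen levels. For oxygen, 3 of the 43 genes passed in limma, against 2.4% of all genes as higher and 0.421% as lower, and all 3 rose: *DDIT4* by 1.31 (SE 0.14, adjusted p = 0.00935), *MLST8*, a subunit of the mTOR complexes, by 0.72 (SE 0.14, adjusted p = 0.0482), and *GIGYF2*, a partner of the repressive cap-binding protein 4EHP, by 0.80 (SE 0.15, adjusted p = 0.0489). The calls of *MLST8* and *GIGYF2* lie close to the limit of 0.05 and were not followed over the alternative settings. In WT and HIF2α-KD, *MLST8* had 119 and 116 in normoxia and 211 and 197 in hypoxia. *GIGYF2* had 213 and 174, then 430 and 278. For knockdown none of the 43 passed.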

How the data were processed

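RNA of 4 cultures was hybridised to 1 array each. The values deposited by the authors are linear intensities per probe set, from total RNA labelled with biotin; how probes were summarized, corrected for background and scaled, and with which software, is not given in the sources used here. Values entered without rescaling, as log2(intensity + 16). Probe sets were named from the platform annotation where it gave 1 symbol (29254 of 42924), filtered on their highest value (28.75), and the brightest stood for its gene. Symbols of 50 of the 54 factors matched RefSeq by gene ID. Pairs of arrays were compared at 2-fold and 1.5-fold, without a test. limma 3.58.1 in R 4.3.3 fitted oxygen and knockdown as additive terms (lmFit, eBayes with trend) over all kept genes, with Benjamini-Hochberg adjustment at 0.05; the script was tested on simulated data. Only 4 arrays limit the precision. Whether a value comes from separate cultures cannot be checked. The factors, the gene lists and the tests were chosen with earlier results of these data known. Factors given with all 4 values were those with the 3 largest differences per direction and comparison, the brightest and most variable of each role, those called by limma, and a short list of core factors. *EIF4ENIF1*, *EIF4G3*, *EIF2B3*, *EIF3B*, *EIF3E*, *EIF3L*, *EEF1B2*, *EEF1D*, *EEF1G*, *EEF1E1* and the members of the control list that passed in limma were added after their values were seen. Alternatives were other pseudocounts (1 and 64), quantile normalization, median centring, no filter or the 75th percentile, the mean of probe sets, no trend and robust moderation.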

Additional observations from a re-analysis of the deposited data

Results flagged for a closer look

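For 3 factors, 1 of them not above background in normoxic WT, the knockdown difference had opposite signs at the 2 oxygen levels, with a size of at least 0.2 on each side, a limit set after the values were seen. It was -0.31 in normoxia and 0.27 in hypoxia for *EEF1AKMT1*. It was 0.35 and -0.27 for *EIF4A2*. For the dim *EIF4EBP2* it was nominally 0.64 and -0.25, but its normoxic WT value of 15.3 lies below the reporters' 95th percentile, so the first is no measured size and no opposite direction is drawn from it. The difference between the oxygen levels was not tested, since each condition has 1 array, and the normoxic value rests on the label of an array on which *EPAS1* was not lower.

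A further 4 probe sets carry a factor's symbol together with other symbols and entered no comparison. Of these, 3 were above the reporters' 95th percentile on all 4 arrays, with intensities of the 4 from 19.7 to 10807. None of the 4 differed by 2-fold in any comparison, with differences from -0.41 to 0.48.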

How the results depend on the processing

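No paired analysis was possible because each condition has 1 array, and leaving out an array leaves no residual degrees of freedom. The count of factors at 2-fold for hypoxia in WT went from 0 to 1 with a pseudocount of 1, to 7 at 1.5-fold and to 4 with all kept probe sets counted (2 of these with values not above the reporters), an alternative chosen after seeing the data. For hypoxia in HIF2α-KD it went to 1 at 1.5-fold and 1 with all probe sets. For the knockdown in normoxia it went to 1 with a pseudocount of 1, 2 at 1.5-fold and 1 with all probe sets, and for the knockdown in hypoxia to 1 at 1.5-fold. The factors that limma called for oxygen went from 1 to 0 with median centring, no filter or no trend, and to 2 with robust moderation; for knockdown the count stayed at 0 in every setting. The median over the factors ranged from -0.15 to -0.06 for hypoxia in WT, from -0.12 to -0.02 in HIF2α-KD, from -0.09 to -0.01 for the knockdown in normoxia and from -0.04 to 0.05 in hypoxia. Taking the mean of probe sets moved 27 of 116 differences of 29 named factors by more than 0.11, the median residual SD, and changed 7 signs, of which 3 had a main value above that SD: *EIF3A* (0.15 to -0.02, hypoxia in WT), *EIF5* (-0.13 to 0.15, hypoxia in HIF2α-KD) and *EIF5A2* (-0.16 to 0.06, hypoxia in WT). The other 4 lay nearer to 0, such as *EIF1AD* (-0.02 to 0.16, hypoxia in WT). The factor at 2-fold with a pseudocount of 1 was the dim *EIF4EBP2* in both comparisons.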
